A study of Homo sapiens with 6 samples.

Results

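The 6 intermediate filament genes NEFM, NEFH, INA, PRPH, VIM and NES were read from bulk RNA sequencing counts of motor neurons derived from H9, an established human embryonic stem cell line. They were taken by gene symbol, and are 6 of the 57820 genes in the table. Each matched 1 Ensembl identifier (ENSG00000104722 for NEFM, ENSG00000100285 for NEFH, ENSG00000148798 for INA, ENSG00000135406 for PRPH, ENSG00000026025 for VIM and ENSG00000132688 for NES), and all 6 passed the filter on low counts. NEFL, the light neurofilament gene, matched no identifier and is not analysed here. Cultures under simulated microgravity (SMG, 3 libraries) were kept on a 2D clinostat, whose rotation averages out the pull of gravity on the cells, and cultures at normal gravity (NG, 3 libraries) were not. Both groups were wild type and came from motor neuron progenitors differentiated with 0.01 μM retinoic acid (RA) and 0.1 μM SAG, an agonist of Hedgehog signalling. All libraries come from 1 cell line. The labels do not state whether each library had its own culture, and p-values then measure only how these libraries spread, perhaps for technical reasons.

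Intermediate filaments are rope-like polymers of coiled-coil proteins that give a cell mechanical strength. Radial progenitors of the neural tube build theirs mainly from vimentin (VIM) and nestin (NES), and nestin needs a partner such as vimentin to polymerise. New neurons replace these with alpha-internexin (INA), peripherin (PRPH) and the neurofilament subunits, of which the medium (NEFM) and heavy (NEFH) subunits carry long phosphorylated tails that project from the filament and space it in the axon. NEFH is known as a late subunit of maturing axons, and peripherin as a filament of motor, sensory and autonomic neurons.

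Total counts were 20986483 to 22685870 in SMG and 16329907 to 21386253 in NG. Levels are given as CPM, a gene's count relative to the TMM-scaled library total, and differences as log2 fold change, SMG minus NG, ± SE from edgeR's quasi-likelihood test, with n = 3 libraries per group and adjusted p over 17803 tested genes. Markers of motor neurons and of neural progenitors were both present. The summed level of 7 motor neuron markers was 689.4 to 716.9 CPM in SMG and 580.7 to 613.4 CPM in NG, and that of 11 neural progenitor markers was 1127 to 1178 CPM in SMG and 1075 to 1153 CPM in NG. In bulk RNA, fewer cells of a type and less RNA per cell cannot be told apart, and this holds for every difference below. NG replicate 3 stood apart from the other NG libraries, with a chi-square per degree of freedom of 2.98 and 3.11 against NG replicates 1 and 2, which differed from each other by 1.53. In SMG the values were 2.7 for replicates 1 and 2, 1.92 for 1 and 3, and 2.04 for 2 and 3. All pairs of libraries within a group differed by more than sampling noise.

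Among the 6 filament genes, INA rose by 10.9% and VIM fell by 6.01% in SMG, and no other member passed the test. NEFM had the largest difference of the 6, 32.4% higher in SMG with groups that did not overlap, and its adjusted p lay just over the threshold of 0.05 (edgeR adjusted p = 0.0505). Thus 2 of 6 members passed, against 35.8% of all genes tested, a share close to that background. The 1 member that rose stands against 17.3% of all genes and the 1 that fell against 18.5%. The groups did not overlap for 3 of the 6, against 46.3% of all genes. SMG was the higher for NEFM and INA, against 22.6% of all genes, and the lower for VIM, against 23.6%.

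**Figure D1:**
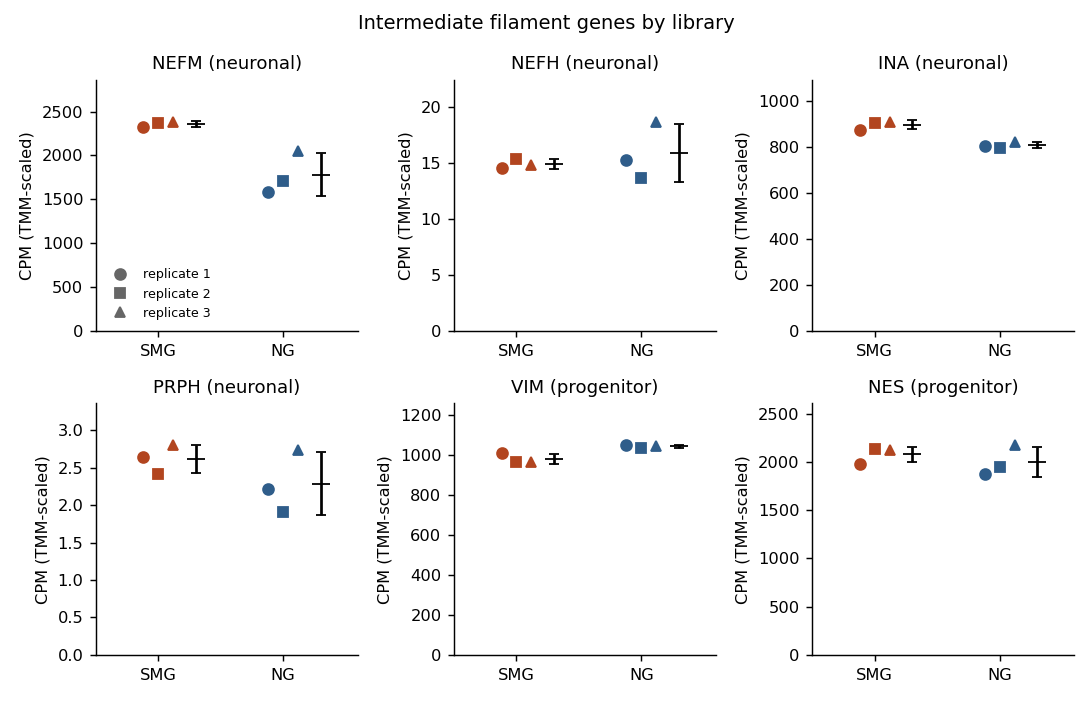
TMM-scaled CPM (vertical axes, from 0) of the 6 filament genes in 3 SMG and 3 NG libraries, with a symbol for each replicate and, beside them, a bar for the mean and SD. NEFM and INA lie higher in all 3 SMG libraries than in any NG library and VIM lies lower, while NEFH, PRPH and NES overlap, with NG replicate 3 (triangle) the highest NG library in 5 of the 6 genes.

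NEFM, the medium neurofilament subunit, had 2319, 2366 and 2385 CPM in SMG replicates 1 to 3, against 1582, 1711 and 2050 CPM in NG replicates 1 to 3. The 3 SMG libraries lay close together, above every NG library, and the NG libraries were spread widely, with replicate 3 the nearest to SMG. The coefficient of variation was 1.43% in SMG and 13.6% in NG. The log2 fold change was 0.40 ± 0.109 (95% interval 0.11 to 0.70). Robust estimation gave this gene 4.28 degrees of freedom in all, where INA had 28.2, so its test rests mostly on its own spread. Without robust estimation the same fold change had an adjusted p of 3.25e-05, with DESeq2 0.0025 and with limma-voom 1.08e-05. Without NG replicate 3 the log2 fold change was 0.52 (edgeR adjusted p = 2.38e-16), and without NG replicate 1 it was 0.33 (edgeR adjusted p = 0.00288). It did not pass without SMG replicate 1 (0.42, edgeR adjusted p = 0.117), SMG replicate 2 (0.40, 0.128), SMG replicate 3 (0.39, 0.131) or NG replicate 2 (0.38, 0.152). Nor did it pass once each library's trend along transcript length and GC was removed (0.34, edgeR adjusted p = 0.117), or with DESeq2's size factors in edgeR (0.41, 0.0502).

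INA, alpha-internexin, a filament protein of young neurons that coassembles with the neurofilament subunits, had 874.1, 903.9 and 909.8 CPM in SMG, against 805.7, 797.5 and 820.7 CPM in NG. Every SMG library was above every NG library, and the spread within each group was small. The log2 fold change was 0.15 ± 0.0312 (edgeR adjusted p = 4.09e-04). It passed in all 17 alternative settings, where it ranged from 0.14 to 0.17, and was at 0.16 without NG replicate 3 (edgeR adjusted p = 2.06e-05).

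NEFH, the heavy neurofilament subunit, had 14.6, 15.4 and 14.8 CPM in SMG, against 15.3, 13.7 and 18.7 CPM in NG. The groups overlapped, and NG replicate 3 was the highest of all libraries. The log2 fold change was -0.087 ± 0.0885 (95% interval -0.27 to 0.095, edgeR adjusted p = 0.481), and it was 0.039 without NG replicate 3 (edgeR adjusted p = 0.766), -0.17 without NG replicate 2 (0.139) and -0.19 with the trend removed (0.14).

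PRPH, peripherin, was the rarest of the 6, with 2.64, 2.42 and 2.80 CPM in SMG, against 2.22, 1.91 and 2.74 CPM in NG. These values stand on 56, 54 and 64 counts in SMG and on 47, 31 and 45 counts in NG. The groups overlapped through NG replicate 3, and at this depth the 95% interval of the log2 fold change ran from -0.15 to 0.55 around 0.20 ± 0.172 (edgeR adjusted p = 0.394). It was 0.34 without NG replicate 3 (edgeR adjusted p = 0.187), 0.098 without NG replicate 2 (0.733) and 0.064 with the trend removed (0.821).

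VIM, vimentin, the filament of progenitors and of many non-neural cells, had 1007, 965.2 and 966.2 CPM in SMG, against 1047, 1036 and 1042 CPM in NG. Every SMG library was below every NG library, by a small margin. The log2 fold change was -0.089 ± 0.0309 (95% interval -0.15 to -0.026, edgeR adjusted p = 0.0242). With the length and GC trend removed it was -0.031 (edgeR adjusted p = 0.386), with library size scaling -0.069 (0.0866) and without a filter -0.078 (0.106). The call also ended without SMG replicate 2 (0.107), SMG replicate 3 (0.118) or NG replicate 1 (0.0932). Without NG replicate 3 it was -0.087 (edgeR adjusted p = 0.0147).

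NES, nestin, the filament protein of neural progenitors, had 1982, 2128 and 2119 CPM in SMG, against 1879, 1946 and 2171 CPM in NG. The groups overlapped, and the highest library was NG replicate 3. The log2 fold change was 0.055 ± 0.0481 (95% interval -0.05 to 0.16, edgeR adjusted p = 0.418). Its sign turned with the trend removed (-0.10, edgeR adjusted p = 0.494), and without NG replicate 3 it passed at 0.12 (edgeR adjusted p = 0.00144). NES and PRPH have the transcripts richest in GC of the 6, at 59.3% and 61.6%, and VIM the poorest, at 46.9%.

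**Figure D2:**
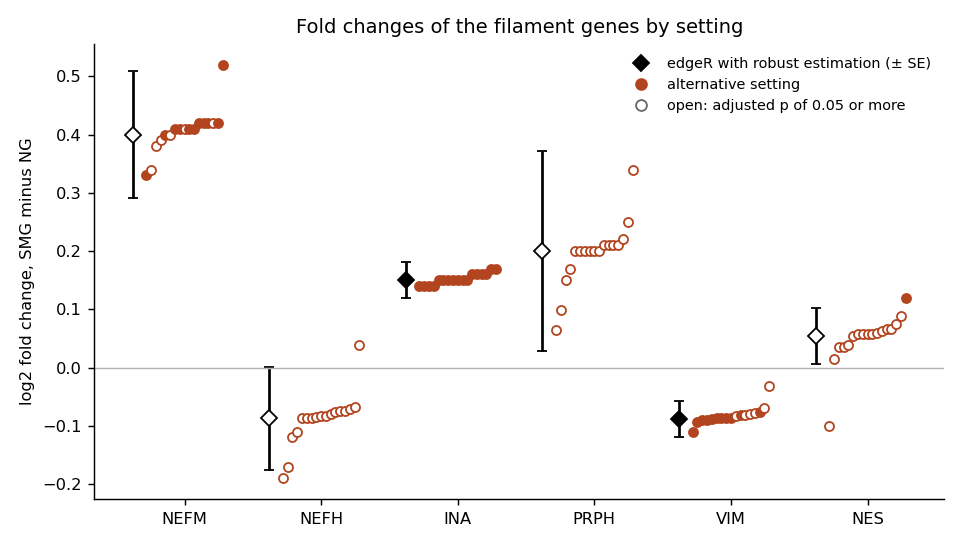
Log2 fold change, SMG minus NG (vertical axis), of each filament gene: a diamond with its SE for edgeR with robust estimation, circles for the 17 alternative settings in order of value, filled where the adjusted p was under 0.05. INA is filled throughout between 0.14 and 0.17, NEFM passes in 11 of 17 alternatives at 0.33 to 0.52, VIM in 11 of 17 at -0.11 to -0.031, and NES crosses 0.

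The spread within NG was shared by several members. On the log2 scale, NG replicate 3 was above the mean of NG replicates 1 and 2 by 0.32 in NEFM, 0.37 in NEFH, 0.42 in PRPH and 0.18 in NES, but by 0.034 in INA and 0.001 in VIM. Over the 10424 genes averaging at least 10 CPM, the same difference had a median of 0.00095 and quartiles of -0.079 and 0.07. The part of this library in the results was not tested, and the values without it are given beside each gene.

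Counts of overlapping or copied genes were few where the table has them. VIM-AS1, an antisense gene at VIM, had at most 0.183% of VIM's count in any library. The processed pseudogenes VIM2P, NEFMP1 and NEFHP1 had at most 1 count in a library. NEFM, NEFH, PRPH and also VIM overlap antisense genes in GENCODE 29 that have no row in the table. The sources used here do not say whether counting used strand, so reads of the antisense strand cannot be told apart.

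Divided by transcript length, the levels fell into 2 tiers in both conditions. NEFM led with 586.3 ± 8.4 CPM per kilobase in SMG and 443 ± 60.2 in NG (SD). VIM followed with 367.3 ± 8.9 in SMG and 390.8 ± 2.03 in NG, and NES with 373.5 ± 14.7 in SMG and 359.6 ± 27.5 in NG; these neighbours overlapped and their order turned between the groups. INA had 277.3 ± 5.92 in SMG and 250.1 ± 3.63 in NG, below both in every library. Far below these came NEFH, with 3.95 ± 0.0984 in SMG and 4.2 ± 0.674 in NG, and PRPH, with 0.809 ± 0.0585 in SMG and 0.705 ± 0.13 in NG. The step between INA and NEFH was 70.2-fold in SMG and 59.5-fold in NG. NEFM was above VIM in every library, but in NG replicate 1 the values were 393.5 for NEFM and 392.7 for VIM. Of 17193 tested genes with a length, these levels placed NEFM at rank 51, VIM at 70, NES at 76, INA at 100, NEFH at 9833 and PRPH at 14551 over all 6 libraries.

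**Figure D3:**
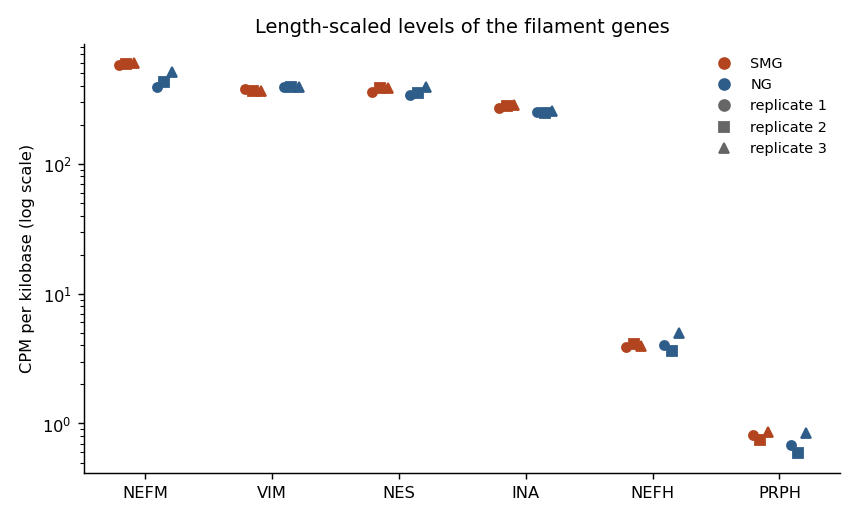
CPM per kilobase of the longest annotated transcript (vertical axis, log scale) of the 6 genes in 3 SMG and 3 NG libraries, ordered by mean level. NEFM, VIM, NES and INA lie between 246.8 and 593.3, and NEFH and PRPH lie below 5 in every library.

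Neuronal and progenitor filaments were contrasted within each library, where the scaling factor cancels. The log2 ratio of the summed CPM of NEFM, NEFH, INA and PRPH to that of VIM and NES was 0.10, 0.088 and 0.10 in SMG, against -0.28, -0.24 and -0.15 in NG. All 3 SMG libraries were above 0 and all 3 NG libraries below it, and the means differed by 0.32. Neuronal filaments made up 51.7% ± 0.15 of the summed CPM of the 6 genes in SMG and 46.1% ± 1.15 in NG (SD, n = 3). The sum of the neuronal filaments was 3270 ± 53.0 CPM in SMG and 2607 ± 254 in NG, and that of the progenitor filaments 3055 ± 58.2 in SMG and 3041 ± 152.5 in NG. No test was made of these ratios, since the members were chosen with results known.

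The shift in the ratio lay mainly in NEFM, which made up 72.1% ± 0.148 of the neuronal sum in SMG and 68.1% ± 2.57 in NG. Without NEFM, an alternative added after the data were seen, the ratio differed by 0.14. Among ratios to VIM, NEFM over VIM differed most, with log2 ratios of 1.2, 1.29 and 1.30 in SMG and 0.60, 0.72 and 0.98 in NG. INA over VIM was -0.20, -0.095 and -0.087 in SMG and -0.38, -0.38 and -0.35 in NG, again without overlap. Before any trend was removed, the pattern was weaker against NES. NEFM over NES did not overlap (0.15 to 0.23 in SMG, -0.25 to -0.083 in NG), while INA, NEFH and PRPH over NES did. The ratios were not computed with the length and GC trend removed, where NEFM was at 0.34, INA at 0.14, VIM at -0.031 and NES at -0.10. NEFH over VIM had a mean of -6.03 ± 0.0658 in SMG and -6.05 ± 0.224 in NG.

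Ratios among the neuronal subunits differed unevenly between the groups. NEFM over INA was 1.41, 1.39 and 1.39 in SMG and 0.97, 1.10 and 1.32 in NG on the log2 scale. The heavy subunit relative to the medium one, NEFH over NEFM, was -7.31, -7.27 and -7.33 in SMG and -6.69, -6.96 and -6.78 in NG, with all 3 SMG libraries lower and means that differed by -0.49. PRPH over NEFH was higher in all 3 SMG libraries (-2.51 ± 0.134 in SMG, -2.80 ± 0.0405 in NG), on the few counts of PRPH. PRPH over INA, on the same few counts, overlapped (-8.42 ± 0.108 in SMG, -8.48 ± 0.242 in NG). Of single genes tested, 46.3% did not overlap between the groups, and no such share was computed for ratios.

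**Figure D4:**
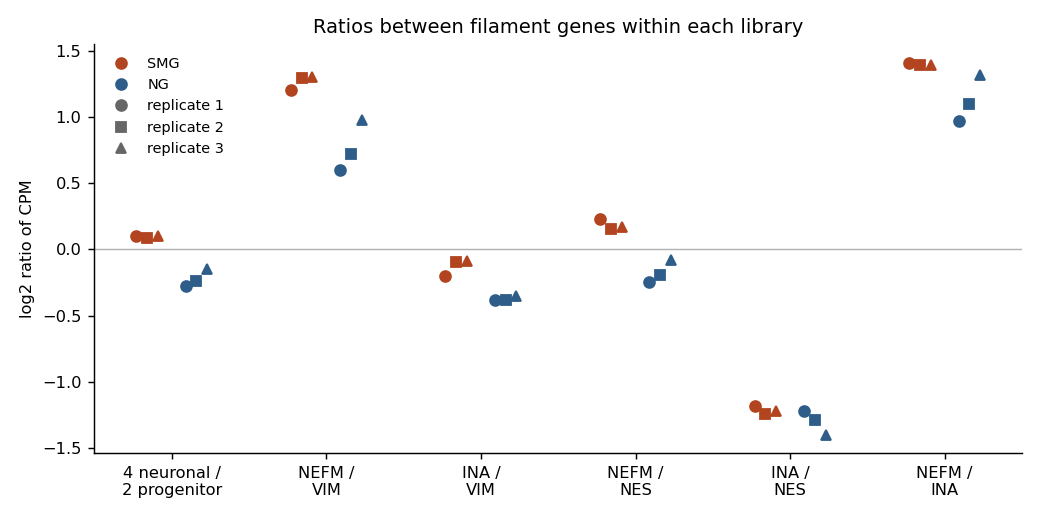
Log2 ratios of CPM between filament genes (vertical axis) within each of 3 SMG and 3 NG libraries. The ratio of 4 neuronal to 2 progenitor filaments lies above 0 in SMG and below 0 in NG, NEFM over VIM differs by 0.50, and INA over NES overlaps.

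For INA and VIM, the 2 members that passed, the 250 bases before their annotated RefSeq starts are printed. Only the start given there was used for each gene, and its use in these cells was not tested. Of the 6 members, 4 (INA, PRPH, VIM and NES) matched RefSeq's promoter sequences, which are on the build GRCh38.p14, not on that of the counts. The INA window is chr10:103276888-103277137 on the plus strand and the VIM window chr10:17227991-17228240 on the plus strand. Capitals mark the GC box, GGGCGG, read on either strand.
INA: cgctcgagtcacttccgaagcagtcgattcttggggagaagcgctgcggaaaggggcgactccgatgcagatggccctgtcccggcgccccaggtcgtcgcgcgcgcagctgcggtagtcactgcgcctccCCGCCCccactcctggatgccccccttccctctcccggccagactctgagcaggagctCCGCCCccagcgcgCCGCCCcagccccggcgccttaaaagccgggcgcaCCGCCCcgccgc
VIM: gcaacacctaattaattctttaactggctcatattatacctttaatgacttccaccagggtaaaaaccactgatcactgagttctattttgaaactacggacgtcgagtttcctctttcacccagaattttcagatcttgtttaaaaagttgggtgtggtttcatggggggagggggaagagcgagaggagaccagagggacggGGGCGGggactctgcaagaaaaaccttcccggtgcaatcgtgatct
INA's window is 72.8% G and C and holds 4 GC boxes, and VIM's is 46% G and C and holds 1. NES, which did not pass, has 2 GC boxes and PRPH has none, and 42.6% of 35116 such windows hold at least 1. PRPH's window holds a TATA box, TATAAA, which 10.7% of windows do. An E box, CANNTG, was found in INA (2 matches) and PRPH (1), the neuronal filament genes, and not in VIM or NES, and is in 61.8% of windows. The core of hypoxia response elements, ACGTG, was in none of the 4 and is in 18.5% of windows, and a SOX core, ACAAT, was in NES alone and is in 24.6%. CCAAT and the AP-1 site TGANTCA were in none of the 4, against 32% and 6.57% of windows. All motifs were searched on both strands. CANNTG and ACGTG can share letters. These matches describe letters and not binding, and any link between these windows and the fold changes was not tested.

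Counts of genes that rose or fell in the lists that follow are to be read against 17.3% and 18.5% of all genes tested. Other intermediate filament genes were few in these cells. Of 22 listed, 10 were tested, and 3 rose and 1 fell, with a median log2 fold change of 0.13, against -0.00018 over all genes tested. With the trend removed 1 rose and 2 fell (median 0.014), and without NG replicate 3, 4 of 11 rose and 1 fell (median -0.024). SYNM, synemin, which builds filaments with vimentin or desmin, had 10.9, 11.9 and 10.7 CPM in SMG and 9.15, 7.70 and 7.98 CPM in NG (0.42 ± 0.0954, edgeR adjusted p = 9.12e-04). The nuclear lamins LMNA (0.21 ± 0.0536, edgeR adjusted p = 0.0033) and LMNB2 (0.16 ± 0.0373, edgeR adjusted p = 0.00122) also rose, but with the trend removed they were at 0.073 (0.238) and -0.0022 (0.964). LMNB2 shares exon sequence with other annotated genes on its strand, so its value is uncertain. LMNB1, another nuclear lamin, was at -0.067 ± 0.0356 (edgeR adjusted p = 0.146). The gene that fell was the epithelial keratin KRT8 (-0.39 ± 0.11, edgeR adjusted p = 0.0063), named after its values were seen, and without NG replicate 1 no gene of the list fell. Its partner KRT18 had 4 to 14 counts in a library and was not tested. KRT5, KRT7, KRT14, KRT17 and KRT80 had no count in any library. The muscle filament DES had at most 1 count in a library, and the astrocyte filament GFAP had 3 to 4 in SMG and 1 to 6 in NG.

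Cytolinkers tie filaments to microtubules, actin and junctions. Of 5 tested, 2 rose and 1 fell. PLEC, plectin, the main linker of vimentin and neurofilaments to other structures, had 206.3, 210.1 and 216.7 CPM in SMG and 142, 143.1 and 128.4 CPM in NG. It was far outside the spread of either group (0.61 ± 0.0387, edgeR adjusted p = 5.99e-13), and at 0.33 with the trend removed (edgeR adjusted p = 1.15e-10). MACF1 rose (0.14 ± 0.0322, edgeR adjusted p = 0.00146; 0.093 with the trend removed) and DST, the spectraplakin named dystonin, fell (-0.17 ± 0.0331, edgeR adjusted p = 2.33e-04). The desmosomal linkers DSP and PPL were at -0.089 and 0.26 and did not pass. With the trend removed, or without NG replicate 3 or SMG replicate 3, 2 cytolinkers rose and 2 fell.

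Neurofilament tails are phosphorylated by CDK5 and other kinases. Of 17 kinase, activator and phosphatase genes, all tested, 4 rose, 2 fell and 11 did not pass, with a median of -0.03, so the share that passed was close to the 35.8% of all genes. CDK5R1, the p35 activator of CDK5, had 222.6, 235.5 and 231.8 CPM in SMG and 193.4, 191 and 181.5 CPM in NG, without overlap (0.29 ± 0.0352, edgeR adjusted p = 2.92e-07), and was at 0.19 with the trend removed. The kinase CDK5 itself was at 0.056 ± 0.0583 (edgeR adjusted p = 0.488). GSK3A, which also phosphorylates the tails, rose by 0.18 ± 0.0459 (edgeR adjusted p = 0.00329). CDK1, the mitotic kinase that phosphorylates vimentin and nestin, fell to 65.3 ± 1.32 CPM in SMG, against 85.5 ± 2.90 in NG (-0.39 ± 0.0422, edgeR adjusted p = 3.04e-08), and was at -0.24 with the trend removed (edgeR adjusted p = 1.94e-05). The other kinases of dividing cells on the list, PLK1 and AURKB, were at -0.057 and -0.055 and did not pass. The list had 4 higher and 4 lower after removal of the trend.

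Of 8 genes of filament transport, 4 rose and 1 fell, with a median of 0.16. After removal of the trend 3 rose and none fell (median 0.10). The gene that fell, the kinesin KIF5B (-0.091 ± 0.0329, edgeR adjusted p = 0.0317), passed in 6 of 17 alternatives, and was at -0.027 with the trend removed. The dynein heavy chain DYNC1H1, the motor of transport toward the cell body, had 1401, 1390 and 1430 CPM in SMG and 1237, 1196 and 1099 in NG (0.26 ± 0.0358, edgeR adjusted p = 3e-06), and was at 0.14 with the trend removed. The axonal kinesin KIF5A rose by 0.24 ± 0.0327 (edgeR adjusted p = 1.08e-06), and MYO5A, a myosin that binds neurofilaments, by 0.20 ± 0.0327 (edgeR adjusted p = 2.32e-05). Among 5 turnover genes, 2 rose and 2 fell. The calcium-activated protease CAPN1 rose (0.27 ± 0.0395, edgeR adjusted p = 5.4e-06), and was at 0.15 with the trend removed. The ubiquitin ligase STUB1 also rose (0.26 ± 0.089, edgeR adjusted p = 0.0234), and passed in 13 of 17 alternatives, at 0.12 with the trend removed. TRIM2, known in mice as a ubiquitin ligase of the light neurofilament subunit, fell (-0.12 ± 0.0328, edgeR adjusted p = 0.00432), and was at -0.073 with the trend removed. With the trend removed, with DESeq2, or without SMG replicate 2 or NG replicate 3, the turnover list had 1 higher and 1 lower. TARDBP, an RNA-binding protein known to bind neurofilament mRNA, fell (-0.10 ± 0.0322, edgeR adjusted p = 0.0157). Its call ended in 6 of 17 alternatives, namely with the trend removed (-0.035, 0.38), with library size scaling, without a filter, and without SMG replicate 2, SMG replicate 3 or NG replicate 1. ARHGEF28, another such protein, had too few counts to test. SYNM, KRT8, MACF1, DYNC1H1, CAPN1 and STUB1 overlap antisense genes in GENCODE 29, and GSK3A and TARDBP genes on their own strand, so their values are uncertain to that extent.

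**Figure D5:**
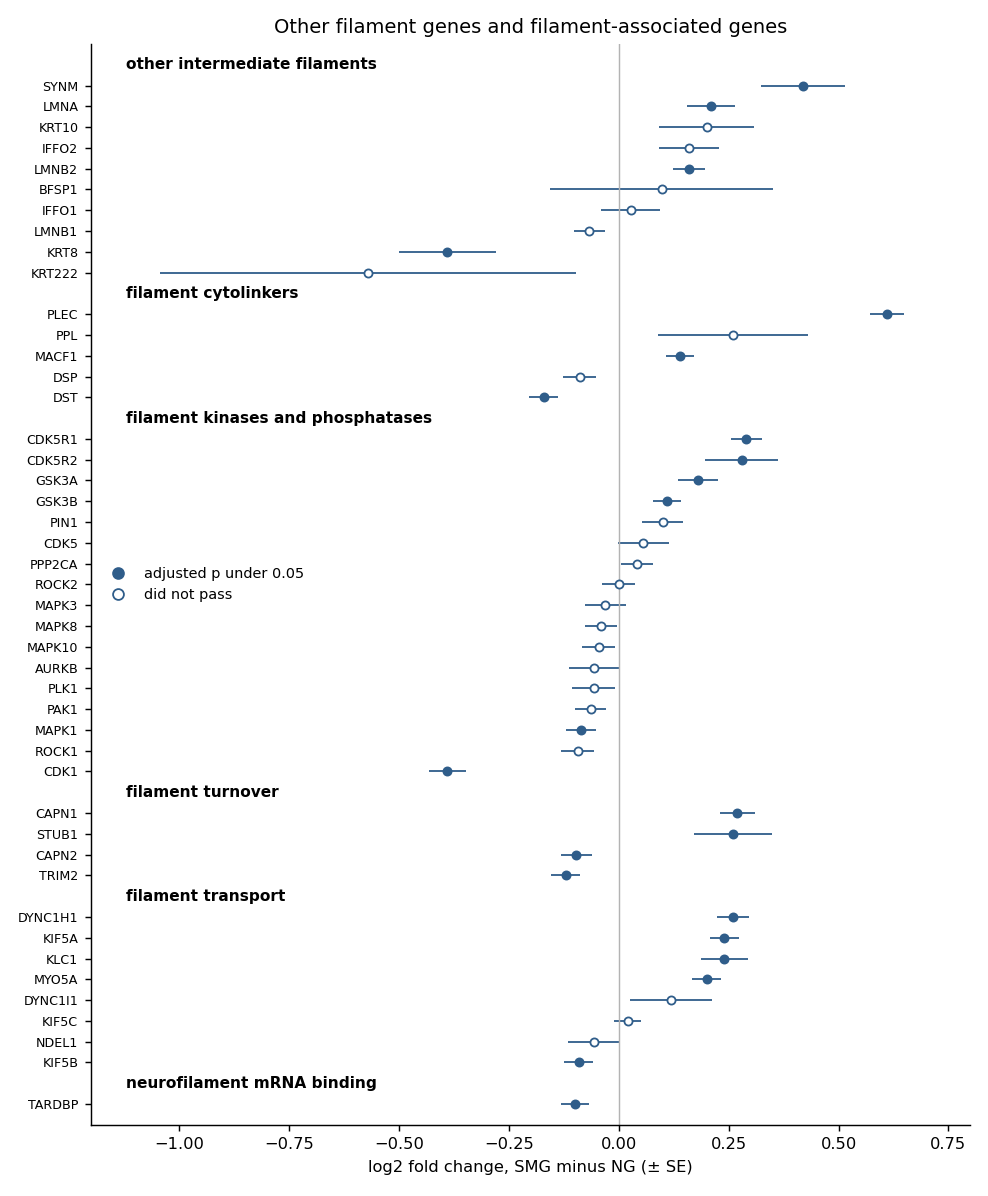
Log2 fold change, SMG minus NG, with SE (horizontal axis) of the tested genes reported here, of other intermediate filaments and of filament linkers, kinases, turnover, transport and mRNA binding, filled where the adjusted p was under 0.05. PLEC (0.61) and SYNM (0.42) lie farthest to the right of the genes that passed, and CDK1 and KRT8 (both -0.39) farthest to the left, before any trend was removed.

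Markers of the cells that could carry these filaments moved unevenly beside them. Of 7 motor neuron markers, 5 rose and none fell (median 0.22), against 17.3% and 18.5% of all genes, led in level by SLC5A7 (0.18 ± 0.0338) and ISL1 (0.22 ± 0.0389). With the trend removed, 3 rose (median 0.073), SLC5A7 at 0.26 and ISL1 at 0.30. Of 8 pan-neuronal markers, 2 rose and 2 fell (median 0.047), with a summed level of 8865 to 9030 CPM in SMG and 8712 to 9343 in NG. With the trend removed 4 rose and none fell, and without NG replicate 3, 4 rose and 2 fell. The most abundant, DCX, was at 0.026 ± 0.0342, and STMN2 fell (-0.12 ± 0.0299, edgeR adjusted p = 0.00289) but was at -0.0031 with the trend removed (0.937). Before any trend was removed, ELAVL3 (0.40 ± 0.0357, edgeR adjusted p = 8.08e-10) and RBFOX3 (0.47 ± 0.0894, 1.39e-04) were the 2 that rose. ELAVL4 was the other that fell (-0.17 ± 0.0332, edgeR adjusted p = 2.3e-04). These 3 were named after their values were seen, and ELAVL3 overlaps a gene on its own strand. Of 11 neural progenitor markers, 3 rose and 3 fell (median -0.017), with SOX2 at -0.083 ± 0.0342 (edgeR adjusted p = 0.0599) and NOTCH1 at 0.26 ± 0.0531 (edgeR adjusted p = 0.00195). The 3 that fell were FABP7 (-0.42 ± 0.057, edgeR adjusted p = 1.34e-06), OLIG2 (-0.22 ± 0.0424, 1.55e-04) and PAX6 (-0.20 ± 0.0502, 0.00242). Besides NOTCH1, SOX9 (0.15 ± 0.0414, edgeR adjusted p = 0.00656) and MSI1 (0.19 ± 0.0425, 6.88e-04) rose. These markers other than SOX2 and NOTCH1 were named after their values were seen, and PAX6 overlaps antisense genes. After removal of the trend 1 progenitor marker rose and 4 fell (median -0.067), NOTCH1 was at 0.042 (0.351), and without NG replicate 3, 3 rose and 5 fell.

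Of 6 astrocyte markers, 2 were tested and both fell, SLC1A3 (-0.16) and GJA1 (-0.56), which progenitors also express. SLC1A3 did not pass with DESeq2, with the trend removed (-0.10, edgeR adjusted p = 0.0961), or without SMG replicate 3 or NG replicate 1. Their list summed to 61.7 to 67.6 CPM in SMG and 78.8 to 83.9 in NG, with AQP4 and S100B at 0 to 6 counts in a library. The oligodendrocyte lineage marker MBP had 7.62 ± 1.09 CPM in SMG and 7.82 ± 0.519 in NG, and was at -0.033 ± 0.109 (edgeR adjusted p = 0.846). The 8 mesenchymal markers, of cells rich in vimentin, summed to 5.90 to 6.92 CPM in SMG and 7.76 to 7.92 in NG, with PDGFRB the 1 of 4 tested that fell (-0.79, edgeR adjusted p = 0.0205, lost with DESeq2 and without SMG replicate 1 or NG replicate 1) and DCN at 0 to 2 counts. Peripheral neuron markers summed to 6.14 to 7.75 CPM in SMG and 5.24 to 7.45 in NG. Pluripotency markers summed to 27.3 to 29.6 CPM in SMG and 28.5 to 31.5 in NG, nearly all DPPA4, with POU5F1 at 1 to 3 counts. The part of any of these cells in the values of the filament genes was not tested.

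The genes with the most similar profile were sought by the root mean square difference of centred log2 CPM over the 6 libraries, among 9875 protein-coding genes averaging at least 10 CPM. They were BCLAF3 and ZBTB7C for NEFM (0.0514 and 0.0543), ASXL1 and VPS4A for INA (0.00952 and 0.0122), and PEBP1 and UNC13B for VIM (0.00925 and 0.0107). For NES they were DNAH10 and RMDN3 (0.0185 and 0.0241), for NEFH NEDD8 and CCZ1B (0.0294 and 0.0351), and for PRPH PPIP5K1 and SLC41A2 (0.0265 and 0.0339). No filament gene was among those named for another. PRPH was below the level asked of neighbours, and among so many candidates such a match was unlikely from the start. With 6 libraries, and so many genes to choose from, nearness describes these libraries alone.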

How the data were processed

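RNA was sequenced from 3 SMG and 3 NG libraries, made per the labels' protocols from 1.3 μg of total RNA with a SMARTER mRNA kit. The deposited table holds raw counts by Ensembl gene, whole and not normalized, in a column per library. The submitters' processing notes name hg19, HISAT2, SAMtools, featureCounts and DESeq2. The sources used here give no version, annotation, strand setting or rule for reads with several matches.

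Symbols were found for 52338 of 57820 genes in a table of names and GENCODE 29, which is on another build and gave names, types and the longest transcript's length and GC content. Groups came from the labels. Genes were filtered with filterByExpr (17803 left), scaled by TMM and tested with edgeR's quasi-likelihood test with robust estimation, adjusted by Benjamini-Hochberg at 0.05. Among genes at 10 CPM or more, log2 fold changes had a median SE of 0.0524. The members and lists were chosen with earlier results of these data known. Named genes were the 6 members, up to 3 called genes of each filament-related list by adjusted p, the most abundant markers and the nearest profiles. Others, such as genes that did not pass and defining markers near 0, were named after their values were seen. Alternatives were DESeq2, limma-voom, other scalings and filters, no robust estimation, a replicate block, each library left out, a length and GC trend removed (splines, 17193 genes with values), and protein-coding genes alone. Some genes of the lists are not reported here. The scripts were tested on simulated data. Tools were DESeq2 1.42.0, limma 3.58.1 and edgeR 4.0.16, run in R 4.3.3.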

Additional observations from a re-analysis of the deposited data

How the results depend on the processing

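INA kept its direction and its call in all 17 alternatives, and the counts of all genes changed stayed within 1.5 times of 6376. NEFM kept its direction in all 17 and passed in 11. Its log2 fold change and adjusted p were 0.41 (0.0025) with DESeq2, 0.42 (1.08e-05) with limma-voom, 0.41 (0.0447) with upper quartile scaling, 0.42 (0.0416) with library size scaling, 0.42 (0.0454) without a filter, 0.41 (0.0445) with at least 1 CPM in 3 libraries, 0.40 (3.25e-05) without robust estimation and 0.42 (0.0401) over protein-coding genes alone. The 6 in which it did not pass were the trend removed (0.34, 0.117), DESeq2's size factors in edgeR (0.41, 0.0502), and SMG replicate 1, 2 or 3 or NG replicate 2 left out (0.38 to 0.42, 0.117 to 0.152). Leaving out each library gave 0.33 to 0.52. VIM kept its direction in all 17 and passed in 11. It was at -0.069 with library size scaling, -0.078 without a filter and -0.031 with the length and GC trend removed, and at -0.11 to -0.08 with each library left out. The sign of NES turned with the trend removed (-0.10), and NES was at 0.014 to 0.12 with each library left out. NEFH turned without NG replicate 3 and ranged from -0.17 to 0.039 over the libraries left out, and was at -0.19 with the trend removed. The cause of these changes was not tested.

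The ratio of neuronal to progenitor filaments differed by 0.32 between SMG and NG, by 0.50 as NEFM over VIM alone and by 0.19 as a mean of log2 CPM. In alternatives added after the data were seen it differed by 0.42 with VIM as the only progenitor filament and by 0.14 without NEFM. Same-numbered libraries did not deviate together (correlations across genes of -0.059, 0.044 and -0.0566 for replicates 1, 2 and 3). With the replicate number as a block NEFM was at 0.41 (edgeR adjusted p = 0.00242), INA at 0.15, VIM at -0.09, NEFH at -0.086, PRPH at 0.20, NES at 0.057, and 6333 genes passed. Depth limits PRPH, at 31 to 64 counts in a library. The counts cover 1 cell line.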
